A study of Mus musculus with 12 samples.

Results

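The mitosis genes described here are 53 genes of cell division, taken by gene name from a table of 55335 genes. They encode parts and regulators of the spindle, the kinetochore, the spindle checkpoint and the cytokinesis machinery, together with the cyclins, kinases and the transcription factor that drive entry into mitosis. All 53 were found in the table, all 53 passed the filter on low counts, and 52 had at least 10 reads in every library. The exception was Depdc1b, whose reads in stimulated cells were few.

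The genes were measured by RNA-seq in splenic CD8 T cells of OT-I mice, a line on the C57BL/6 background with a transgenic T cell receptor. Cells were transduced with a retroviral vector, either an empty one (control) or one expressing Batf3, a leucine zipper protein of the AP-1 family of transcription factors, and were sorted for successful transduction. They were then cultured for 6 h without stimulation, in medium with IL-15 at 100 ng/ml, or on plate-bound antibody to CD3e with antibody to CD28, each at 1 µg/ml. This gave 4 groups of 3 libraries, so that all groups share the strain, the receptor, the transduction and the sort, and the groups differ in the vector or in the culture. IL-15 is named in the labels for the cultures without stimulation only, and whether the stimulated cultures also held it is not stated, so an effect of the antibodies and one of a difference in IL-15 cannot be told apart. The design text calls the 3 replicates of each group technical. Every SD, SE and p-value below therefore measures technical spread, and none covers the spread between mice, transductions or cultures.

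Most of these genes belong to a programme that is transcribed in G2 and early mitosis and is nearly silent in resting cells. In cells outside the cycle, the DREAM complex, built on the MuvB core with a pocket protein and E2F4, holds many of them off. In cycling cells the MuvB core joins B-MYB and then FOXM1, itself a member here, and the same promoters become active. MuvB binds a short promoter element called the cell cycle genes homology region (CHR), and the factor NF-Y binds CCAAT boxes that often lie beside it. T cells switch the programme on when an antigen signal takes them out of rest and into division.

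Promoter sequences were read first, because the members moved together in these libraries and many are textbook targets of the complexes just named. RefSeq windows on GRCm38.p6, running from 250 bases before to 50 bases after the annotated start, were found for 42 of the 53 members, in 44 windows. Some of these starts, among them those of Kif2c, Cdca8 and Cdca3, lie inside the gene span of a second annotation, GENCODE M21. Their windows were counted like the others. The windows were searched on both strands for the CHR as TTTGAA and for the CCAAT box as CCAAT. The 7 windows printed include those of Cdca3 and Ccnb2, which fell furthest on stimulation among members with a window. The others are those of Pttg1, which moved least, and of Mki67, Top2a, Plk1 and Cdc20. Capitals mark the CHR (TTTGAA, or TTCAAA on the other strand) and the CCAAT box (CCAAT, or ATTGG on the other strand). All are given 5′ to 3′ on the strand of the gene.
Mki67, chr7:135716330-135716629, minus strand: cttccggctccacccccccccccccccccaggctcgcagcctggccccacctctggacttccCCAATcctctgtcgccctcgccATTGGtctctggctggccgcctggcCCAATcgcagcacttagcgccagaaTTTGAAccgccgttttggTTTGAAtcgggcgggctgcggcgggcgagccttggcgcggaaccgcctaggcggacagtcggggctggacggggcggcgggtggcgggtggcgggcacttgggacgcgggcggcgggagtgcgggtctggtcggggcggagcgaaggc
Ccnb2, chr9:70421505-70421804, minus strand: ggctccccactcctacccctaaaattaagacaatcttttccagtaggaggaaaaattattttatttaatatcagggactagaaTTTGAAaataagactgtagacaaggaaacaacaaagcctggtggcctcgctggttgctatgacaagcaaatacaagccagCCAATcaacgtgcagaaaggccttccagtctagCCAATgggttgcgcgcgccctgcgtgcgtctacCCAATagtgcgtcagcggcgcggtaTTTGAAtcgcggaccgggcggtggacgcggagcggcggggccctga
Cdca3, chr6:124829926-124830225, plus strand: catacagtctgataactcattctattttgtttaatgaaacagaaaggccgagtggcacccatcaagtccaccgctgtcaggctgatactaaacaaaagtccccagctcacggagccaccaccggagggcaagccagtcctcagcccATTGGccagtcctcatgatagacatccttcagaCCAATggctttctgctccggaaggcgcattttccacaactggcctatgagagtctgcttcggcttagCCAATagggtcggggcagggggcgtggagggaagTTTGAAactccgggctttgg
Cdc20, chr4:118437294-118437593, minus strand: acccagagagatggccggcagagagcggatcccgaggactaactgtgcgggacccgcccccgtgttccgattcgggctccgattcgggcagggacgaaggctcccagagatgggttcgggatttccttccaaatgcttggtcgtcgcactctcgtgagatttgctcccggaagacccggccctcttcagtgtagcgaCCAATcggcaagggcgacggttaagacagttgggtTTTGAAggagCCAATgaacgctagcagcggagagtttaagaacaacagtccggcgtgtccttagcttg
Plk1, chr7:122159185-122159484, plus strand: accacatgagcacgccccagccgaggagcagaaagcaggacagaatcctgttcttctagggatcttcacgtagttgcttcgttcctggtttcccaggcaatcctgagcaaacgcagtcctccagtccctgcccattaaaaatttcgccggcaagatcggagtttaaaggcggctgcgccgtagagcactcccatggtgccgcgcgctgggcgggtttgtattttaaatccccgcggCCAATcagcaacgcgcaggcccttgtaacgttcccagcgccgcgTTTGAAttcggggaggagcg
Top2a, chr11:99024140-99024439, minus strand: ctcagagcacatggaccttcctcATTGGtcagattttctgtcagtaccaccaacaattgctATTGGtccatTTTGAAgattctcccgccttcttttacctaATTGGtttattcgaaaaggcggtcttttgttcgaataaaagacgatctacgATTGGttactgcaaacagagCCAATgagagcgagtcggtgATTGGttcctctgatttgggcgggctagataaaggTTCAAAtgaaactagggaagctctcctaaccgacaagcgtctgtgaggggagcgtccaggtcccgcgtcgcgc
Pttg1, chr11:43425932-43426231, minus strand: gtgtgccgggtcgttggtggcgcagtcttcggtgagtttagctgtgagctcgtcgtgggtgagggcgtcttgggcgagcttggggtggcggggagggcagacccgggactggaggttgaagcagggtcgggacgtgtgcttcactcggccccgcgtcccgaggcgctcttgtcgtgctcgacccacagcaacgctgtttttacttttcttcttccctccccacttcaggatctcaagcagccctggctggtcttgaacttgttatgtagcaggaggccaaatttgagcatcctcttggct

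The first 6 windows hold a CHR and a CCAAT box, and the window of Pttg1, the gene of securin, holds neither word. Counted from 1 at the annotated start, with negative positions before it, the CHR of Plk1 begins at base 31 and that of Cdca3 also at base 31. That of Cdc20 begins at base -18. Ccnb2 has a CHR at base 5 and another at base -167, and 3 CCAAT boxes at bases -87, -54 and -21. Over all members with a window, 33 of 42 held a CHR (78.6%), against 14.8% of the 10049 tested genes with a window and 20.2% of all 27025 genes with a window. Of the 33 members, 30 had one within 50 bases of the start. A CCAAT box stood in 30 of 42 members (71.4%), against 43.3% of tested genes with a window and 41.1% of all genes with a window. At least 2 CCAAT boxes stood in 21 members, and in 16.9% of tested genes with a window. An E2F word (TTTCGCGC or TTTGGCGC) occurred in 2 members, Cdk1 and Kif15, which is 4.76% of those with a window against 1.86% of tested genes. The AP-1 word TGANTCA, where N is any base, occurred in none of the 44 windows and in 7.81% of all 32851 windows. These are matches of letters in a short window, not measured binding, and they were not tested.

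The libraries had between 14211564 and 14468231 reads counted to genes, an even depth. A level is given below as CPM, reads scaled to a common library size with TMM factors, as the mean ± SD of 3 libraries. A count of 3 reads stood for 0.191 to 0.229 CPM in a library, and this floor, like the shares of reads, covers counting error only because PCR copies cannot be told from separate molecules. The label check held in all 12 libraries: Batf3 was at 5.83 to 19.1 CPM in control libraries and at 414 to 475 CPM in libraries of the Batf3 vector. Summed over 10 genes, CD8 T cell identity markers stood at 4140 to 4210 CPM in control and 3940 to 3950 CPM in Batf3 cells without stimulation. With stimulation they stood at 2680 to 2710 CPM and 3120 to 3180 CPM. Cd4 was at no more than 0.668 CPM. Ms4a1 (B cells), Lyz2 (myeloid cells), Ncr1 (NK cells) and Hbb-bs (erythroid cells) were at 0 in all libraries. Other genes of the same lists were detected, and some changed with Batf3. In IL-15 the log2 change was 1.29 for Itgam, 1.25 for Fcgr3, 1.81 for Hba-a1, 0.58 for Cd79b and -1.93 for Klrb1c. After stimulation it was 1.31 for Itgax and 0.86 for Itgam. The summed myeloid list of 9 genes was higher with Batf3 in both cultures, at 31.3 to 32.1 against 16.9 to 18.9 CPM without stimulation and at 59.3 to 62.6 against 28.6 to 30.9 CPM with it. Summed B cell markers (6 genes) were at 3.51 to 6.63 CPM without and 0.685 to 1.85 CPM with stimulation, and NK markers (3 genes) at 1.92 to 5.78 and 1.07 to 1.99 CPM. A list of 7 erythroid and stromal genes, nearly all of it Pecam1, was at 52.4 to 58.4 CPM without and 6.17 to 8.26 CPM with stimulation. The part of these marker levels in the results on the mitosis genes was not tested.

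Added up, the 53 mitosis genes stood at 4568 ± 17 CPM in control cells kept in IL-15 and at 6150 ± 42.2 CPM in Batf3 cells in the same culture. After 6 h on antibodies the sums were 867 ± 13.4 CPM for control cells and 1370 ± 14.5 CPM for Batf3 cells (SD, n = 3 in each group). As shares of all reads these sums were 0.477, 0.676, 0.0795 and 0.13%. The 4 groups did not overlap in any library, and the order was Batf3 without stimulation highest, control without stimulation next, then Batf3 with stimulation and control with stimulation. Stimulated Batf3 cells, which had more of these transcripts than stimulated controls, still had lower means than unstimulated controls for all 53 genes. In RNA taken from a whole culture, fewer dividing cells and less of each transcript per cell cannot be told apart.

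**Figure D1:**
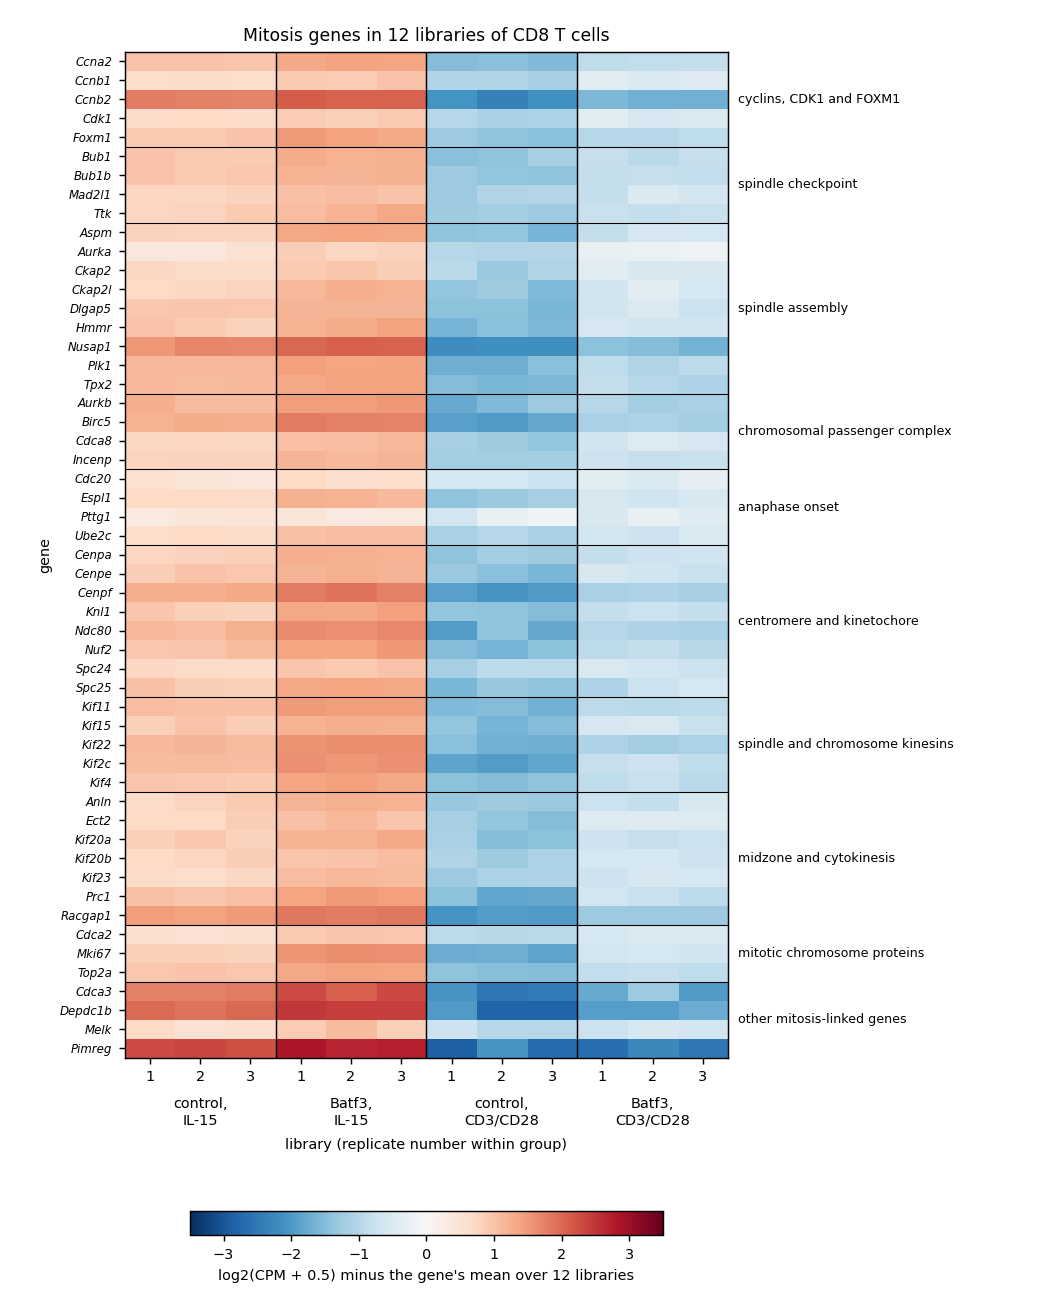
Level of the 53 mitosis genes in the 12 libraries, as log2(CPM + 0.5) minus the gene's mean over all libraries (red, higher; blue, lower), with rows grouped by role and columns by vector and culture. Nearly all rows step down from Batf3 in IL-15 to control in IL-15, to Batf3 on CD3/CD28 antibodies and to control on CD3/CD28 antibodies; Pttg1, Pimreg and Cdc20 show the smallest differences between vectors after stimulation.

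Compared as RPKM over the union of all annotated exons, the members covered a wide range in unstimulated control cells. This union can be longer than the transcript a cell makes, so the order between genes depends on the annotation. It ran to 8390 bases for Mad2l1 and to 1531 for Ccnb2. By this measure Top2a, the topoisomerase that untangles sister chromatids, was highest at 73.4 RPKM. It was followed by Cdc20, the activator of the anaphase-promoting complex, at 47.4, Ccnb2 (cyclin B2) at 46.3 and Mki67, the Ki-67 protein that coats mitotic chromosomes, at 45.1. The last 3 were close to one another. At the low end stood Cenpf at 4.55, Aspm at 4.28, Ttk at 3.95 and Anln at 3.01 RPKM. With Batf3 in IL-15, Top2a was at 98.2 RPKM and Mki67 at 76.7, so that Mki67 moved above Cdc20 (54.1) and Ccnb2 (57.9). In stimulated control cells the order changed: Cdc20 was highest at 21.8 RPKM, above Top2a at 13.5, and Ccnb2 was at 2.7.

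The first comparison asked what the Batf3 vector did to these genes in cells kept in IL-15. Of the 53 genes, 52 rose and none fell, with a median log2 change of 0.41 and a range from -0.04 to 0.76. Over all 15702 genes tested, 16.3% rose and 23% fell, with a median of -0.02. In the same 52 genes every Batf3 library lay above every control library. How many of all tested genes separate this way was not counted, so the separation is not read as particular to the members. The exception was Pttg1 (securin, the inhibitor of separase), at -0.04 ± 0.08. None of the 52 rises reached 2-fold.

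The vector had the same direction in stimulated cells, with a larger median. There 50 genes rose and none fell, the median log2 change was 0.63 and the range ran from -0.08 to 1.15. Among all tested genes 14.8% rose and 14.6% fell, with a median of 0.00. The 50 genes that rose were among the 52 that rose in IL-15, and in each of these 50 the 3 Batf3 libraries lay above the 3 control libraries. The share of all tested genes that separate in this way was again not counted. The genes that did not pass the test were Pttg1 at -0.08 ± 0.11, Pimreg at 0.06 ± 0.31 and Melk at 0.27 ± 0.12, of which Melk passed narrowly under 2 alternatives. Rises of at least 2-fold were seen in 3 genes: Kif2c (1.15), Mki67 (1.12) and Depdc1b (1.02). That of Depdc1b ran from 0.75 to 1.73 with 1 library left out, highest without control stimulated replicate 1, and it was under 2-fold without control stimulated replicate 2 or 3 or Batf3 stimulated replicate 3. Both calls and values come from the quasi-likelihood test of edgeR, with Benjamini-Hochberg adjustment over all genes, and the rises of Spc24 (0.36 ± 0.13) and Depdc1b after stimulation did not pass under every alternative.

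**Figure D2:**
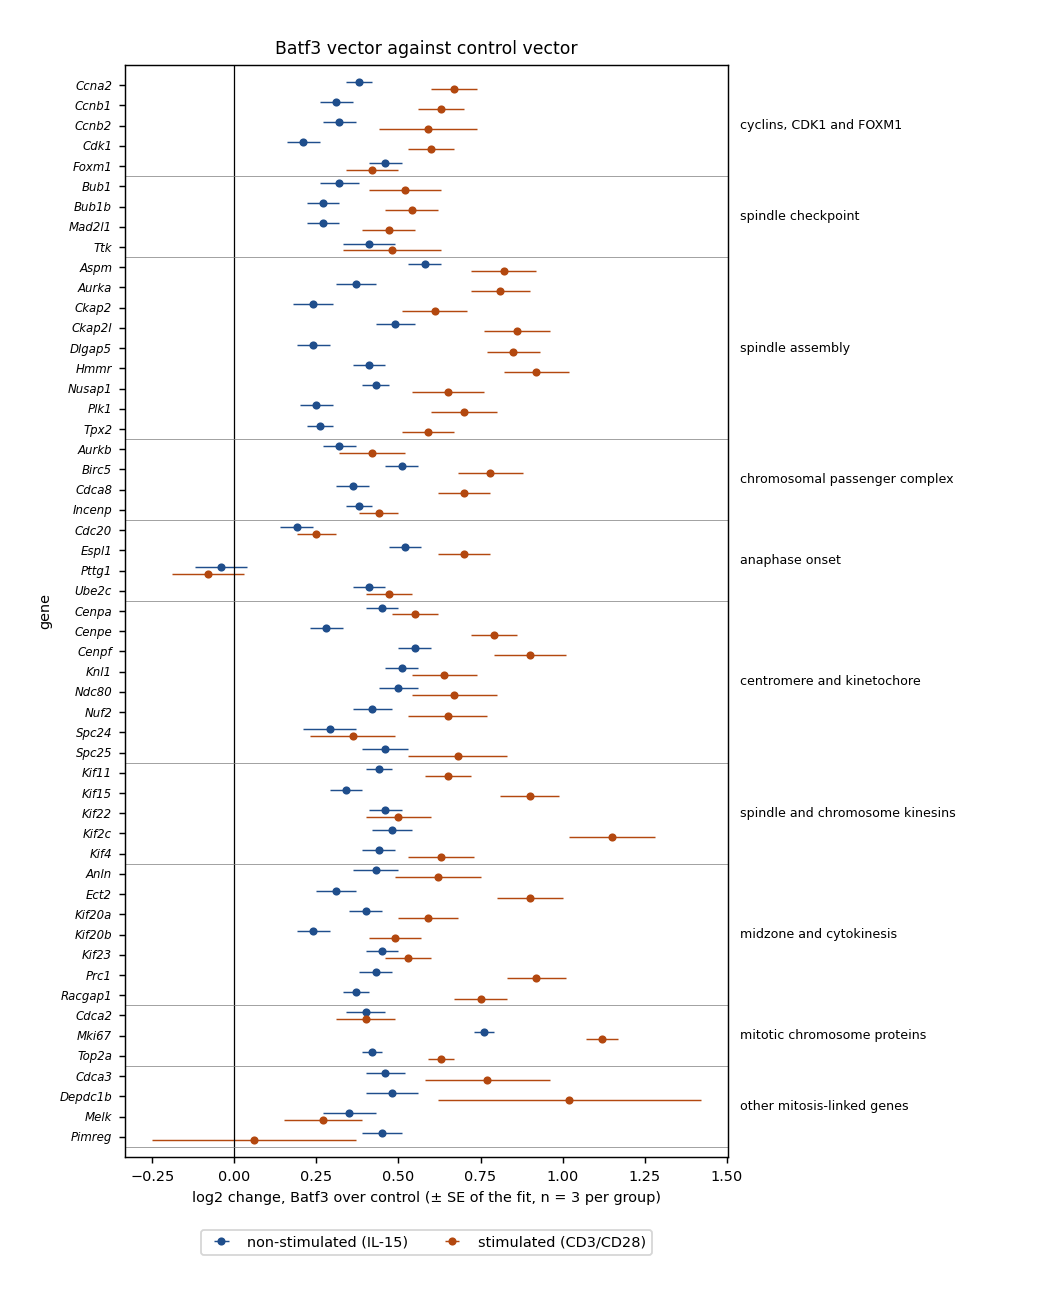
Log2 change of each mitosis gene with the Batf3 vector against the control vector (x axis; points are fitted values, bars are ± SE, n = 3 libraries per group), in IL-15 culture (blue) and after CD3/CD28 stimulation (orange). The points lie to the right of 0 except for Pttg1, and the orange points reach further right, to 1.15 for Kif2c.

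Mki67 (chr7:135689784-135716361, GRCm38, minus strand) had the largest rise in IL-15. Its level was 456, 458 and 448 CPM in the control libraries and 743, 794 and 778 CPM in the Batf3 libraries. On CD3 and CD28 antibodies it was 76.3, 78.7 and 71.1 CPM with the control vector and 165, 167 and 158 CPM with Batf3. The 4 groups were well apart. The fold was 1.7 in IL-15 (log2 0.76 ± 0.03) and 2.17 after stimulation (log2 1.12 ± 0.05). Top2a (chr11:98992943-99024189, minus strand) was at 652, 679 and 656 CPM in control and 878, 897 and 881 CPM in Batf3 cells in IL-15. In stimulated cells the values were 127, 120 and 119 against 186, 193 and 184 CPM. No group overlapped another, and the fold was 1.34 in IL-15 and 1.54 after stimulation. The third protein of mitotic chromosomes, Cdca2, which brings a phosphatase to them, rose by the same log2 change of 0.40 in both cultures.

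Among the cyclins, the kinase they activate and their transcription factor, 5 of 5 rose in each culture. Ccnb1, cyclin B1, was at 73.3, 75.7 and 73 CPM in control and at 90.8, 89.5 and 95.6 CPM in Batf3 cells in IL-15. After stimulation the values were 22.6, 22.7 and 20.9 against 35.1, 33 and 34.5 CPM. Cdk1, the kinase that drives mitotic entry, was at 91.2, 93 and 91.1 against 106, 103 and 109 CPM in IL-15. In stimulated cells it was at 28.2, 25.5 and 26.4 against 43.4, 38 and 40.4 CPM. Both genes were higher in each Batf3 library than in any control library of the same culture, by log2 0.31 and 0.21 in IL-15 and by 0.63 and 0.60 after stimulation. Foxm1, which switches on late cell cycle genes, was at 86.2, 86.3 and 90.6 CPM in control and 128, 121 and 114 CPM in Batf3 cells in IL-15. After stimulation it stood at 18.7, 16.8 and 16.1 against 22.3, 22.6 and 24.2 CPM. Its log2 rise was alike in the 2 cultures, 0.46 ± 0.05 and 0.42 ± 0.08. Ccna2 (cyclin A2) and Ccnb2 rose by 0.38 and 0.32 in IL-15 and by 0.67 and 0.59 after stimulation.

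The 4 checkpoint genes, whose proteins hold back anaphase until chromosomes are attached, rose in both cultures with medians of 0.30 and 0.50. Mad2l1 was at 64.5, 63 and 67.8 CPM in control and 77.8, 81.1 and 76.9 CPM in Batf3 cells in IL-15. In stimulated cells it was at 15.5, 18.3 and 18.4 against 21.1, 26.6 and 24.3 CPM, again without overlap. Bub1, Bub1b (BubR1) and Ttk (the checkpoint kinase MPS1) rose by 0.27 to 0.41 in IL-15.

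The 9 spindle assembly genes rose in both cultures, with a median of 0.37 in IL-15 and 0.81 after stimulation, the largest median of the 10 role groups in stimulated cells. Plk1, polo-like kinase 1, a regulator of spindle poles, kinetochores and mitotic exit, was at 69.4, 70.1 and 70.1 CPM in control and 85.2, 81.1 and 83.1 CPM in Batf3 cells in IL-15. With stimulation the levels were 9.14, 9.07 and 11 against 16.4, 14.7 and 16.2 CPM. The fold was 1.19 in IL-15 and 1.62 after stimulation, with no overlap. Aspm, a protein of microtubule minus ends at spindle poles, was at 49.9, 49.5 and 49.5 against 74.1, 75.1 and 73.4 CPM in IL-15. In stimulated cells it was at 10.5, 10.7 and 8.83 against 15.8, 19 and 18.4 CPM. Its rise in IL-15, 0.58 ± 0.05, was second to that of Mki67. Dlgap5, which stabilises kinetochore fibres, went the other way in rank: its rise was small in IL-15 (0.24 ± 0.05; 78.7, 80.7 and 78.2 against 94.4, 93.7 and 93.4 CPM) and large after stimulation (0.85 ± 0.08; 14.8, 14.9 and 13.1 against 24.8, 28.7 and 23.8 CPM). Hmmr, Aurka (Aurora A), Ckap2, Ckap2l, Nusap1 and Tpx2, which bind or build spindle microtubules, rose by 0.24 to 0.49 in IL-15 and by 0.59 to 0.92 after stimulation.

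The chromosomal passenger complex, which corrects wrong attachments and later steers cytokinesis, has 4 members here, and 4 of 4 rose in each culture. Its kinase Aurkb (Aurora B) was at 76.3, 68 and 69.2 CPM in control and 87.3, 88.4 and 91.5 CPM in Batf3 cells in IL-15. On antibodies it was at 8.91, 10.4 and 12.8 against 15.5, 13.4 and 14.2 CPM; the lowest Batf3 library stood close to the highest control library. Birc5 (survivin) rose by 0.51 and 0.78 in the 2 cultures, Cdca8 (borealin) by 0.36 and 0.70, and the scaffold Incenp by 0.38 and 0.44.

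Of the 8 centromere and kinetochore genes, 8 rose in each culture, with medians of 0.46 and 0.66. Cenpf, a large protein of the outer kinetochore corona, was at 69.1, 69.5 and 72.2 CPM in control and 102, 107 and 98.6 CPM in Batf3 cells in IL-15. After stimulation its level was 7.23, 6.4 and 6.85 against 12.6, 13.3 and 12.4 CPM. The fold was 1.46 and then 1.87. Cenpa, the histone H3 variant that marks the centromere, rose by 0.45 and 0.55, and Cenpe, a kinetochore motor, by 0.28 and 0.79. The 4 subunits of the NDC80 complex, the main microtubule grip of the kinetochore, rose in IL-15 by 0.50 (Ndc80), 0.42 (Nuf2), 0.46 (Spc25) and 0.29 (Spc24).

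The 5 kinesins of the spindle and of chromosome arms rose in both cultures. Kif2c, the microtubule depolymerase MCAK, was at 42.5, 42.3 and 41.4 CPM in control and 59.5, 56.5 and 59.6 CPM in Batf3 cells in IL-15. In stimulated cells it was at 5.03, 4.65 and 5.18 against 10.9, 11.6 and 10.3 CPM, the largest log2 rise of any member there (1.15 ± 0.13; edgeR's quasi-likelihood test, Benjamini-Hochberg adjusted p = 2.38e-12; higher in 3 of 3 libraries). Kif11 (Eg5) and Kif15, the motors that push spindle poles apart, rose by 0.44 and 0.34 in IL-15 and by 0.65 and 0.90 after stimulation. Kif4 and Kif22, which move chromosome arms, rose by 0.63 and 0.50 after stimulation.

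The 7 genes of the central spindle and cytokinesis rose in each culture as well. Ect2, the exchange factor that activates RhoA for the cleavage furrow, was at 37.6, 37.4 and 41.9 CPM in control and 47, 52.3 and 45.9 CPM in Batf3 cells in IL-15. After stimulation it was at 9.9, 8.77 and 7.77 against 16.4, 16.7 and 16.4 CPM. The groups did not overlap, and the fold was 1.24 in IL-15 and 1.87 after stimulation. Its partners in the centralspindlin complex, Racgap1 and Kif23, rose by 0.37 and 0.45 in IL-15 and by 0.75 and 0.53 after stimulation. Prc1, which bundles midzone microtubules, rose by 0.43 and 0.92, and Anln (anillin, of the contractile ring) by 0.43 and 0.62. Kif20a and Kif20b, kinesins of the midzone, rose by 0.40 and 0.24 in IL-15.

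Genes of the metaphase to anaphase switch differed among themselves. Cdc20 was at 93.3, 86.8 and 85.3 CPM in control and 106, 98.5 and 99 CPM in Batf3 cells in IL-15. After stimulation it was at 41.8, 42.1 and 38.5 against 48.9, 45.4 and 51 CPM. The libraries did not overlap within a culture, but the changes, 0.19 ± 0.05 and 0.25 ± 0.06, were small beside those of most members. Pttg1 was at 21.4, 22.6 and 23 CPM in control and 22.8, 21 and 21.5 CPM in Batf3 cells in IL-15, and at 10.4, 14 and 15.2 against 11.3, 14 and 12.1 CPM after stimulation. Its libraries overlapped in both cultures (edgeR's quasi-likelihood test, Benjamini-Hochberg adjusted p = 0.773 and 0.624). Espl1, the separase that securin inhibits, rose by 0.52 and 0.70, and Ube2c, the ubiquitin-conjugating enzyme of the anaphase-promoting complex, by 0.41 and 0.47.

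**Figure D3:**
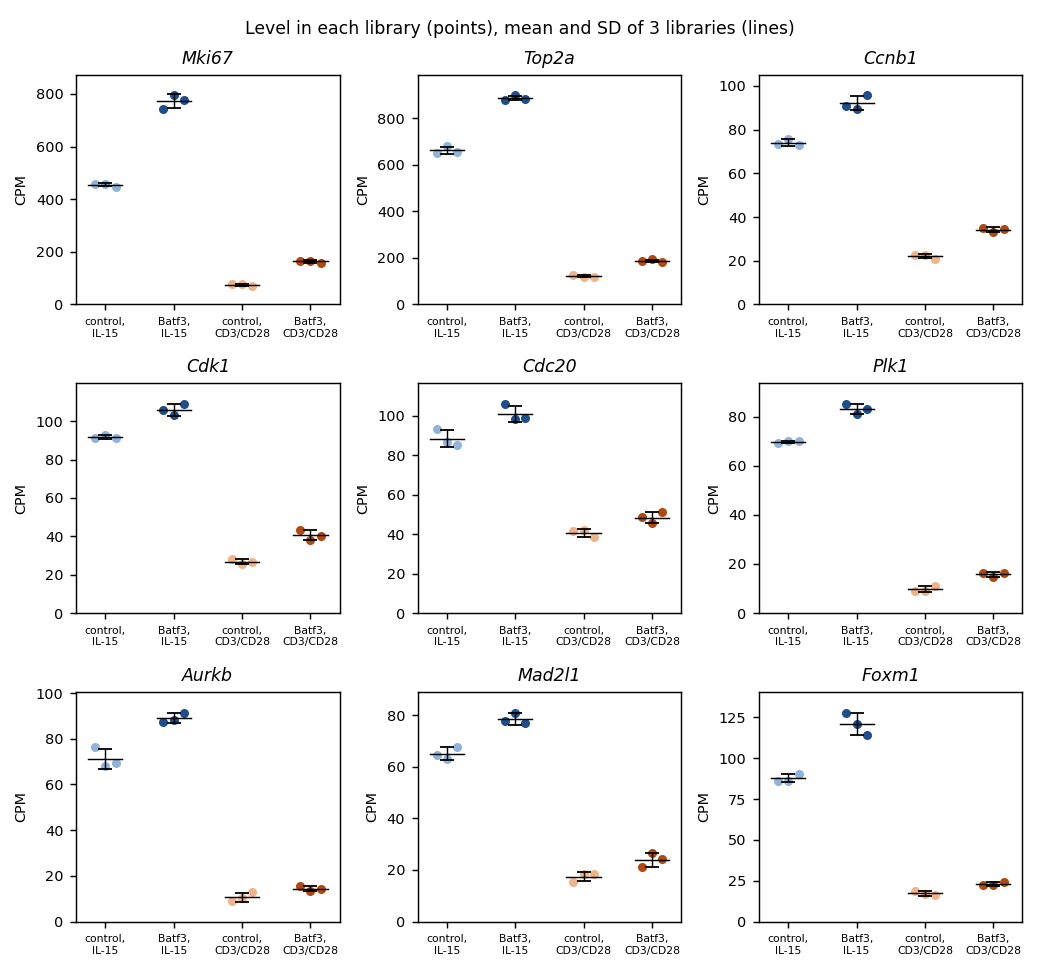
Level in CPM of 9 mitosis genes in each library (points), with the mean and SD of 3 libraries (lines), for control and Batf3 vectors in IL-15 and on CD3/CD28 antibodies; each y axis starts at 0. In each panel the stimulated groups lie below both IL-15 groups and the Batf3 points lie above the control points of the same culture.

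The second comparison asked how the genes responded to 6 h on CD3 and CD28 antibodies. All 53 fell with the control vector, by a median log2 change of -2.35 (range -5.38 to -0.76), and all 53 fell with Batf3, by a median of -2.07 (range -5.70 to -0.80). Of all tested genes, 40.7% fell and 39.6% rose with the control vector, and 41.4% fell and 41.2% rose with Batf3, with medians of -0.01 and 0.01. In each of the 53 genes the 3 stimulated libraries lay below the 3 unstimulated ones, for both vectors. This separation was not counted over all tested genes either. The median gene kept 19.6% of its unstimulated level in control cells and 23.8% in Batf3 cells. A level under 10% was left in 7 genes with the control vector and in 5 with Batf3, and under 50% in 52 with either.

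The deepest falls were those of Depdc1b, Pimreg, Cdca3 and Ccnb2. Depdc1b, a protein linked to RhoA signalling, went from 21.8, 20.6 and 21.9 to 0.914, 0.305 and 0.305 CPM with the control vector, which left 2.37%. With Batf3 it went from 30.5, 29.7 and 29.3 to 0.967, 0.964 and 1.18 CPM. Only 20 reads in all 3 stimulated control libraries, and 42 in the Batf3 ones, stand behind these values, so the fitted changes of -5.38 ± 0.33 and -4.83 ± 0.23 have wide errors. Pimreg, a mitotic regulator known as a partner of CALM, went from 44.2, 45.8 and 42.8 to 0.761, 1.68 and 0.914 CPM with the control vector and from 64.2, 57.4 and 60.4 to 0.967, 1.41 and 1.11 CPM with Batf3. Its stimulated libraries overlapped between vectors although the unstimulated ones did not. Cdca3, the trigger of mitotic entry that targets WEE1, went from 61, 61.5 and 63.5 to 3.88, 2.74 and 2.82 CPM, and with Batf3 from 88.4, 77.7 and 90.3 to 4.91, 7.12 and 4.13 CPM. Ccnb2 kept 5.84 and 7.02% of its level with the 2 vectors. Its close relative Ccnb1 kept 29.9 and 37.2%, a log2 change of -1.74 against -4.10 for Ccnb2 in control cells.

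By role, the shares left ran from 16.1% (median of the 5 kinesins) to 37.9% (median of the 4 genes of anaphase onset) in control cells, apart from the 4 remaining mitosis-linked genes, where the median was 3.8%. Anaphase onset thus kept the most. Pttg1 kept 59.1% with the control vector and 57.3% with Batf3, and Cdc20 kept 46.1 and 47.9%. Aurka kept 35.7 and 48.5%, Cdca2 kept 34.7 and 34.6%, and Melk, a kinase of the late cell cycle, kept 33.9 and 32.0%. The spindle assembly genes kept a median of 18% with control and 24.8% with Batf3, with Nusap1 lowest at 6.91% in control cells. Other genes that kept less than 10% in control cells were Racgap1 at 8.87% and Cenpf at 9.72%.

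The members with the word TTTGAA in the window fell about as far as those without it. Only this form of the CHR was searched, so the split does not show which promoters lack the element. The median log2 change on stimulation of control cells was -2.35 over the 33 members with the word and -2.34 over the 9 without, and the range within each was wide, from -4.30 to -1.12 and from -3.85 to -0.76. The rise with Batf3 in IL-15 had medians of 0.43 and 0.32, and after stimulation of 0.67 and 0.63. These medians describe the members and were not tested.

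**Figure D4:**
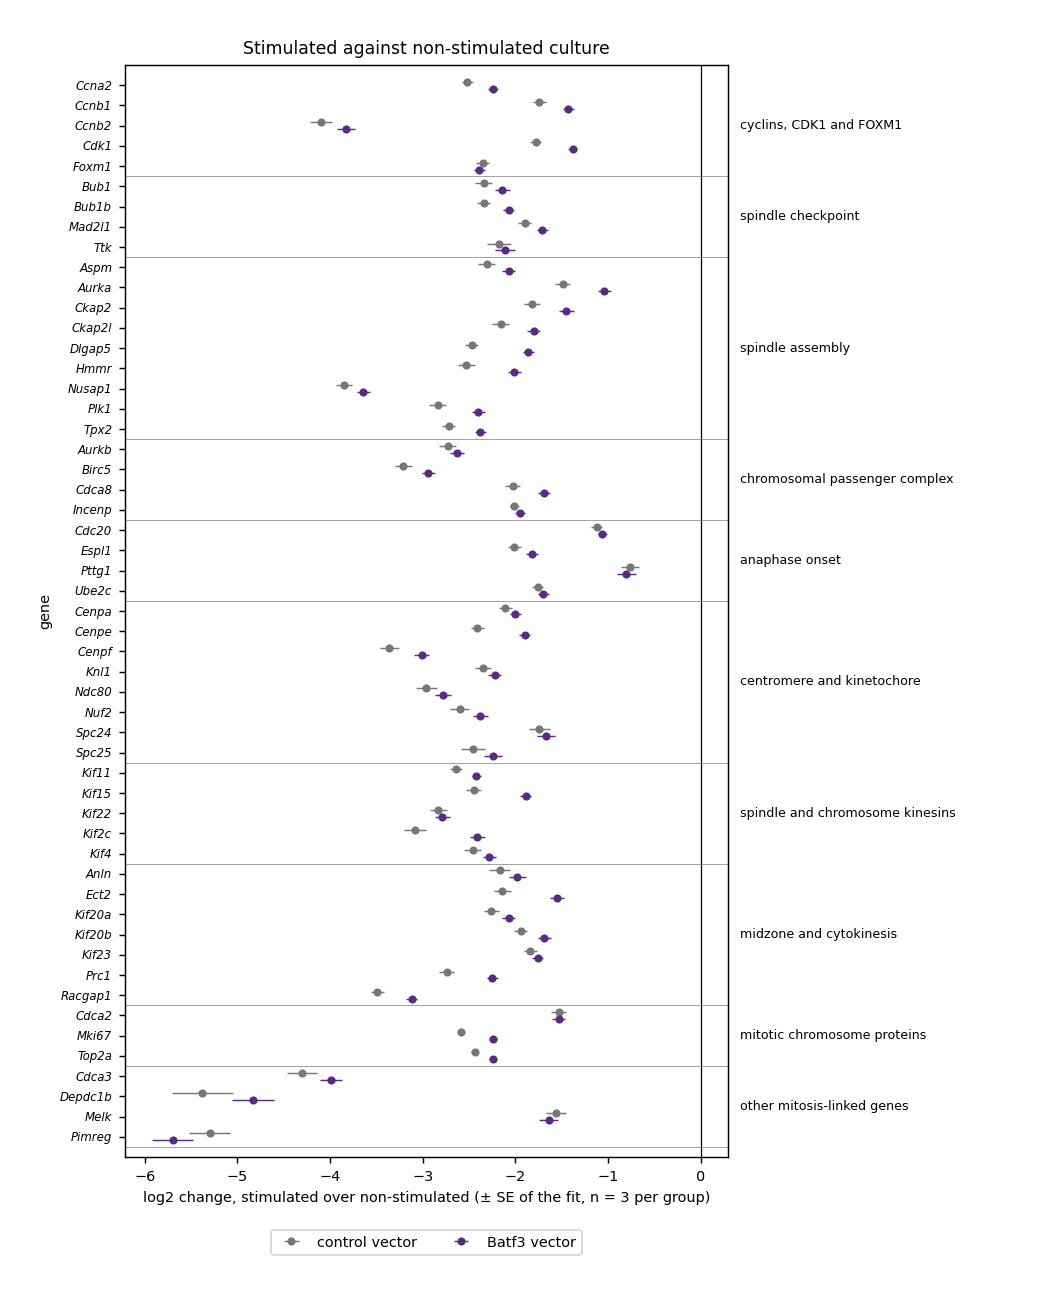
Log2 change of each mitosis gene on CD3/CD28 stimulation (x axis; points are fitted values, bars are ± SE, n = 3 libraries per group), with the control vector (grey) and the Batf3 vector (purple). All points lie left of 0, from -0.76 for Pttg1 with the control vector to -5.70 for Pimreg with Batf3, and most purple points lie to the right of the grey ones.

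The third comparison, the interaction, measured the difference between the 2 cultures in the effect of Batf3, which is the same number as the difference between the 2 vectors in the response to stimulation. It was positive and passed the test in 22 of 53 genes, was negative and passed in none, and did not pass in 31. Of all tested genes 14.6% passed with a positive and 6.08% with a negative value, and the median was 0.05 over all genes and 0.23 over the members. A positive value means that Batf3 cells lost a smaller part of the transcript on stimulation. The genes with the largest values that passed were Kif2c at 0.67 ± 0.14, Dlgap5 at 0.61 ± 0.10 and Ect2 at 0.59 ± 0.12 (edgeR's quasi-likelihood test, Benjamini-Hochberg adjusted p = 5.98e-05, 3.39e-07 and 0.000105). In control cells these 3 kept 11.8, 18 and 22.6% of their level, and in Batf3 cells 18.7, 27.5 and 34.1%.

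The 22 genes are given here by role, beside the 14.6% of all tested genes that passed with a positive value. Spindle assembly held 7 of its 9 (Aurka, Ckap2, Ckap2l, Dlgap5, Hmmr, Plk1 and Tpx2), the kinesins 3 of 5 (Kif11, Kif15 and Kif2c) and the cyclin group 3 of 5 (Ccna2, Ccnb1 and Cdk1). Midzone and cytokinesis had 3 of 7 (Ect2, Prc1 and Racgap1), mitotic chromosome proteins 2 of 3 (Mki67 and Top2a), and centromere and kinetochore 2 of 8 (Cenpe and Cenpf). The checkpoint had Bub1b and the passenger complex Cdca8, each 1 of 4. In anaphase onset 0 of 4 passed, with values from -0.05 to 0.18. The remaining mitosis-linked genes also had 0 of 4, with values from -0.40 to 0.54. Counts of 2 of 8, 1 of 4 and 0 of 4 are near the share of all genes and are not read as a result about those roles. No test compared the roles with one another. Of the 22 calls, 16 held under all 18 alternatives, and those of Bub1b, Cdca8, Cenpf, Ckap2, Ckap2l and Kif11 were lost under at least 1.

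Neighbouring gene groups were read from lists of the same pathway to see how far the 2 patterns reached. Of all tested genes, 16.3% rose and 23% fell with Batf3 in IL-15, and 14.8% rose and 14.6% fell after stimulation. On stimulation of control cells 40.7% fell and 39.6% rose. The 8 condensin subunits, which compact mitotic chromosomes, all rose with Batf3 in both cultures (medians 0.26 and 0.44), and all fell on stimulation of control cells (median -1.79), led by Ncapd2 at -2.85 ± 0.06. Of 14 other outer kinetochore genes, 9 rose and 1 fell with Batf3 in IL-15, 10 rose after stimulation, and 13 fell on stimulation of control cells. The exception was Zwint, a kinetochore scaffold, which rose on stimulation from 72.4 to 125 CPM (means of 3 libraries). Of 19 inner kinetochore and CENP-A loading genes, 8 rose and 1 fell with Batf3 in IL-15 and 19 fell on stimulation of control cells. Of 15 cohesin genes 8 rose with Batf3 in IL-15, and 13 fell on stimulation of control cells while 2 rose. Sgo2a, the shugoshin that protects centromeric cohesin, had the deepest fall there, -3.48 ± 0.28. Of 23 centrosome genes 6 rose and 1 fell with Batf3 in IL-15, 11 rose after stimulation, and 20 fell on stimulation of control cells. The 6 rises in IL-15 are not read as a result about the centrosome genes.

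For 3 further groups the counts on stimulation of control cells are read against the 40.7% of all tested genes that fell and the 39.6% that rose, and none of the 3 is read as a result about the group. Of 18 kinases and phosphatases of mitotic entry, 9 fell and 5 rose on stimulation of control cells. Cdc25b, the phosphatase that activates CDK1, fell from 155 to 9.42 CPM, and Nek6, a kinase that acts on mitotic kinesins, rose from 20.4 to 244 CPM. Of 17 genes of the anaphase-promoting complex and its inhibitors, 8 fell and 4 rose, with a median of -0.10, and 4 rose and 2 fell with Batf3 in each culture, where 16.3 and 14.8% of all genes rose. The largest fall there was that of Fbxo5 (EMI1, an inhibitor of the complex), -2.06 ± 0.08. Of 14 p53 targets linked to arrest, 6 rose and 7 fell on stimulation of control cells. With Batf3 8 rose and 3 fell in IL-15 while 5 rose and 6 fell after stimulation. Of all tested genes 23% fell with Batf3 in IL-15 and 14.6% after stimulation.

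Among 20 genes of the MuvB, B-MYB, E2F and pocket protein families, 15 fell and 4 rose on stimulation of control cells, with E2f2, an activator E2F, deepest: 95.7, 94.9 and 99.9 CPM fell to 5.25, 4.12 and 4.57 CPM. With Batf3 in IL-15, 8 rose and 4 fell, and after stimulation 10 rose and 1 fell. Of all tested genes, 16.3% rose and 23% fell with Batf3 in IL-15, and 14.8% rose and 14.6% fell after stimulation. On stimulation of control cells 40.7% of all tested genes fell and 39.6% rose. The 4 falls with Batf3 in IL-15 are near the share of all genes and are not read as a result. E2f2 rose with Batf3 by 0.79 ± 0.04 in IL-15 and 0.83 ± 0.14 after stimulation. E2f1, an activator of G1/S genes, fell by 0.52 with Batf3 in IL-15, from 33.3, 28.8 and 31.4 to 24, 19.8 and 21.3 CPM, and rose by 0.46 ± 0.10 after stimulation. Rbl2 (p130, the pocket protein of DREAM) rose by 0.51 ± 0.05 and 1.01 ± 0.11.

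The G1/S and DNA replication list differed from the mitosis genes in IL-15. Of its 40 genes, 21 fell and 3 rose with Batf3, with a median of -0.15, where 52 of the 53 mitosis genes rose. Of all tested genes 23% fell and 16.3% rose there. With library sizes taken without TMM factors, 13 of the 40 fell and 7 rose. After stimulation 35 of the 40 rose with Batf3 and none fell, with a median of 0.46, where 14.8% of all tested genes rose. On stimulation of control cells 39 fell (median -1.53), where 40.7% of all tested genes fell. The interaction passed with a positive value in 33 of 40 (median 0.55), against 22 of 53 mitosis genes and 14.6% of all tested genes. Mcm2, a subunit of the replicative helicase, was at 211, 204 and 205 CPM in control and 134, 135 and 136 CPM in Batf3 cells in IL-15, and at 71.3, 69.2 and 69.5 against 100, 96.6 and 102 CPM after stimulation. The groups did not overlap, and the sign of the Batf3 effect was opposite in the 2 cultures (interaction 1.13 ± 0.06; edgeR's quasi-likelihood test, Benjamini-Hochberg adjusted p = 8.82e-26). No test compared the 2 lists as lists.

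**Figure D5:**
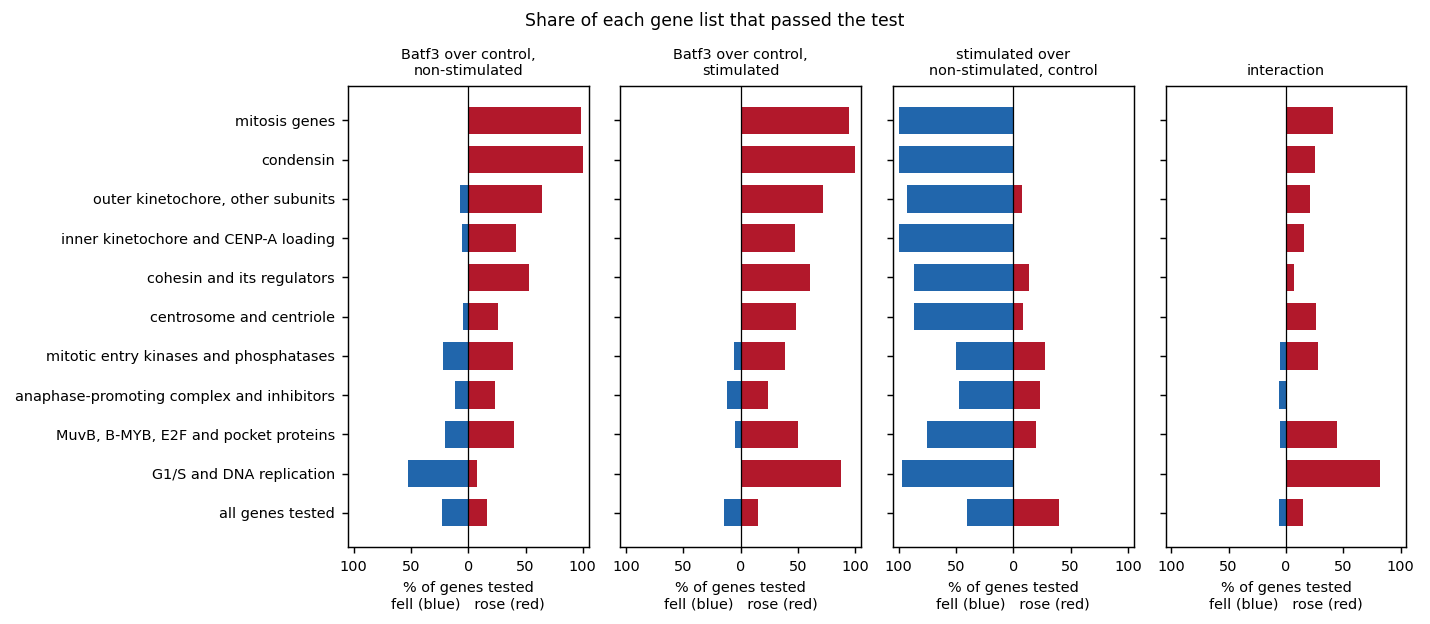
Share of each gene list that rose (red, to the right) or fell (blue, to the left) at an adjusted p under 0.05, in % of the genes tested, for 4 comparisons, with all 15702 tested genes in the bottom row. Mitosis genes and condensin are nearly all red for Batf3 in both cultures and all blue for stimulation, while G1/S and DNA replication is mostly blue for Batf3 in IL-15 and mostly red after stimulation.

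Some members share exonic sequence with another gene, and the strand setting of the counting is not given in the sources used here. Exons of 11 members overlap those of a gene on the opposite strand, among them Plk1, Cdc20, Ccna2, Kif20a, Ube2c, Nusap1 and Prc1, and exons of 2 members, Top2a and Foxm1, overlap a gene on the same strand. How reads from such stretches were assigned is not given either, so these values are less certain than the others.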

How the data were processed

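The authors deposited a table of whole-number read counts for 55335 genes in 12 libraries, 3 in each of 4 groups. Per the labels' protocols, poly-A RNA from 100 ng of total RNA was prepared with a stranded kit and 15 PCR cycles. Per the submitters' processing notes, reads were handled with STAR 2.7, featureCounts and GRCm38, while the annotation release and strand setting were not given in the sources used here.

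Counts were fitted in R 4.3.3 with edgeR 4.0.16 by the quasi-likelihood test (TMM, filterByExpr, robust dispersion, 4 group means over all 12 libraries, 8 residual degrees of freedom). Of the genes, 15702 were tested. Tests were two-sided, and p-values were adjusted by Benjamini-Hochberg over all tested genes of a contrast, with calls at an adjusted p under 0.05. "Rose", "fell" and "passed" refer to these calls. Log2 changes are ± SE with n = 3 libraries per group. Replicates of a group differed by more than counting noise, and none was a copy of another. The fit was tested on simulated counts. RPKM used exon lengths of GENCODE M21 (GRCm38), which held 55154 of the gene identifiers and all 53 members. Promoters came from RefSeq on GRCm38.p6, and the 11 members without a window are Ccna2, Aurkb, Kif20a, Tpx2, Incenp, Cdca2, Dlgap5, Spc24, Depdc1b, Pimreg and Foxm1.

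The members and the gene lists were chosen with earlier results of these data known. Values in every library are given for 9 chosen members (Mki67, Top2a, Ccnb1, Cdk1, Cdc20, Plk1, Aurkb, Mad2l1 and Foxm1), which do not cover every role. They are also given, in each contrast, for the 3 members with the largest called rise and the 3 with the largest called fall. From each other list up to 2 called genes per direction and contrast may be named. Alternatives were DESeq2 1.42.0, limma-voom (limma 3.58.1), library sizes without TMM factors, no filter, a filter of 1 CPM in 3 libraries, a fit on the groups compared only, a replicate block, and leaving out each library in turn.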

Additional observations from a re-analysis of the deposited data

Results flagged for a closer look

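The effect of Batf3 differed between the 2 cultures, by the interaction term of edgeR's quasi-likelihood test (Benjamini-Hochberg over all genes), in the 22 mitosis genes listed here with their log2 interaction (effect after stimulation minus effect in IL-15). Among cyclins and CDK1 it was 0.40 for Cdk1, 0.32 for Ccnb1 and 0.28 for Ccna2. Among spindle assembly genes it was 0.61 for Dlgap5, 0.52 for Hmmr, 0.44 for Aurka, 0.44 for Plk1, 0.37 for Ckap2, 0.37 for Ckap2l and 0.34 for Tpx2. Among kinesins it was 0.67 for Kif2c, 0.56 for Kif15 and 0.21 for Kif11, and in the midzone group 0.59 for Ect2, 0.49 for Prc1 and 0.38 for Racgap1. At the kinetochore it was 0.51 for Cenpe, 0.35 for Cenpf and 0.27 for the checkpoint gene Bub1b. It was 0.34 for Cdca8 of the passenger complex, 0.35 for Mki67 and 0.21 for Top2a.

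Over all tested genes the interaction passed with a positive value in 2296 and with a negative one in 954. Outside the 53 members, the values for 8 genes that passed, Batf3 and genes of the neighbouring lists, are given here. It was positive for Orc1 (1.23, origin recognition), Mcm2 (1.13), E2f1 (0.98), Rbl2 (0.50), Rrm2 (0.29, a subunit of ribonucleotide reductase), Nek6 (0.20) and Zwint (0.19). It was -1.58 for Batf3 itself, whose level in control cells rose on stimulation from 6.77 to 18.4 CPM (means of 3 libraries). The neighbouring lists also held genes that passed with a negative value. Among them were Plk2 (-0.91), Sesn1 (-0.72), Rb1 (-0.36), Nek7 (-0.34) and Anapc5 (-0.16). Of the 14 p53 targets linked to arrest, 4 passed with a positive and 5 with a negative value.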

How the results depend on the processing

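Counts of members that rose in IL-15 or fell on stimulation held under every alternative within 1.5 times, as did the 50 rises after stimulation and the 22 positive interactions (17 to 24 with 1 library left out, 18 with DESeq2 or with no filter). Without TMM factors the median over the members was 0.48 for Batf3 in IL-15, -2.53 for stimulation of control cells and -2.29 for stimulation of Batf3 cells. The median of all genes then moved to -0.19 and -0.20 for stimulation, and to 0.05 for Batf3 in each culture. The summed levels were then 4772, 6766, 796 and 1298 CPM for control and Batf3 in IL-15 and control and Batf3 stimulated. Over all genes this scaling turned the split for Batf3 from 2560 up and 3615 down to 3604 up and 2397 down in IL-15, and from 2331 and 2300 to 2979 and 1561 after stimulation. For stimulation it turned the split to 5086 up and 7443 down with the control vector and to 5254 and 7525 with Batf3. With no filter the median for stimulated Batf3 cells was -2.12. With 1 library left out that median ran from -2.13 to -2.07, lowest without Batf3 stimulated replicate 2. Pttg1 and Pimreg, which did not pass, changed sign: Pttg1 in IL-15 was 0.038 without TMM factors. With 1 library left out, Pttg1 in stimulated cells ran from -0.233 to 0.019, positive without control stimulated replicate 3. Pimreg in stimulated cells ran from -0.164 to 0.459, negative without control stimulated replicate 1 or 3 or Batf3 stimulated replicate 2. The call of Spc24 after stimulation was lost with DESeq2 (adjusted p = 0.0517), with no filter (0.0681) and without control stimulated replicate 1 (0.148) or Batf3 stimulated replicate 1 (0.118). That of Depdc1b was lost with no filter (0.0695), in the fit on the compared groups (0.0622) and without control stimulated replicate 2 (0.181) or 3 (0.185) or Batf3 stimulated replicate 3 (0.105). Melk after stimulation passed without TMM factors (0.31, adjusted p = 0.05 as rounded) and without control stimulated replicate 1 (0.36, adjusted p = 0.0492). The cause of these changes was not tested.

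Same-numbered libraries showed no shared deviation (18 pairs, correlations from -0.148 to 0.081). Between technical replicates this cannot tell whether the numbers pair the samples, and the labels give no link between equal numbers. With the number as a replicate block the counts were 52, 50, 53, 53 and 22 members, as without it. Depth limits Depdc1b (20 and 42 reads over the 3 stimulated libraries of control and Batf3) and Pimreg (44 and 47 reads).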
